A study of Mus musculus with 33 samples.

Results

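The genes described here are 6 orphan nuclear receptors, chosen by name: the COUP-TF genes Nr2f1, Nr2f2 and Nr2f6, and the further orphan receptors Nr6a1, Nr5a2 and Nr0b1. All 6 were among the 17120 genes of the deposited count table, which had been filtered on low counts, and each was followed through 33 bulk RNA-seq libraries, 3 for each of 11 groups. Embryonic stem cells of the mouse that carry the ScxGFP tendon reporter were aggregated into embryoid bodies and differentiated to paraxial mesoderm (PM, somite in the labels), which was collected at D6, or by the labels plated as a monolayer for tendon induction with CD1530, which activates the retinoic acid receptor gamma (RARγ), or for fibrocartilage induction with AGN 193109 (AGN), which lowers the basal activity of retinoic acid receptors. Induced cells were taken at 5 times, namely 0.25 days (D6.25), 0.75 days (D6.75), 1.5 days (D7.5), 2.5 days (D8.5) and 4 days (D10) after the start of induction. All induced cultures also received TGFβ1, the hedgehog agonist SAG and FGF2, and CD1530 was given at a higher molar concentration than AGN. The medium before D6 held CHIR and LDN-193189. For this stage the study's methods also list either AGN or all-trans retinoic acid, while the labels name no ligand for PM. In the paper's own tests, all-trans retinoic acid at this stage abolished nearly all later ScxGFP induction, and AGN raised it. The paper proposes that the former turned cells towards a neural fate. It introduces the time course as using its highly efficient protocols, but does not name the ligand of the PM libraries. No culture without a ligand after D6 was analysed here, so gain of signalling in CD1530 and loss of it in AGN cannot be told apart, and in the change from PM to D6.25 the medium, the ligand and the plating that the labels name cannot be told apart either. The methods call the replicates biological and use 3 reporter lines, but do not say whether replicates differ by line. The p-values set a difference against the spread between these replicates, estimated over all 33 libraries. Whether that spread covers different lines is not known.

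Nuclear receptors are transcription factors that bind hexamer half-sites, with AGGTCA as the standard form, as monomers or as pairs. For orphan members no physiological hormone is established, and neither their protein nor their activity was measured here. COUP-TFs bind paired half-sites at many spacings, mostly as repressors, can pair with the RXR partners of the retinoic acid receptors, and compete with those receptors for sites. Nr2f1 acts in neural crest and forebrain patterning and Nr2f2 in mesenchyme and venous endothelium. Nr6a1, also called GCNF, binds 2 half-sites with no base between them, represses the pluripotency gene Pou5f1 as stem cells differentiate, and controls the extent of the trunk. Nr5a2, also called LRH-1, binds a single extended half-site and sustains Pou5f1. Nr0b1, also called DAX1, lacks the usual DNA-binding domain and acts as a corepressor in embryonic stem cells and steroid-producing tissue.

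On GRCm38, Nr2f1 (ENSMUSG00000069171) lies on the minus strand at chr13:78188973-78199757, Nr2f2 (ENSMUSG00000030551) at chr7:70351944-70366735, and Nr2f6 (ENSMUSG00000002393) at chr8:71374123-71381960, also on the minus strand. Nr6a1 (ENSMUSG00000063972) spans chr2:38723370-38927688 and Nr5a2 (ENSMUSG00000026398) chr1:136842571-136960448, both on the minus strand, and Nr0b1 (ENSMUSG00000025056) lies on the plus strand at chrX:86191764-86195947. The AGGTCA half-site, on either strand, was looked for in the RefSeq promoter windows of GRCm38.p6, which run from 250 bases before to 50 after a start. All 6 genes matched, with 9 windows of 300 bases, and the half-site was in 3 of the 9, once or more, against 16.3% of 32851 windows in all. The windows with it belonged to Nr6a1, Nr5a2 and Nr0b1, and none belonged to a COUP-TF gene. These 3 are printed 5′ to 3′ on the strand of the gene, up to the first annotated exon base, because they hold the letters that this receptor family reads, with the half-site or its reverse complement TGACCT in capitals.
Nr6a1, chr2:38784521-38784765, before a start inside the gene: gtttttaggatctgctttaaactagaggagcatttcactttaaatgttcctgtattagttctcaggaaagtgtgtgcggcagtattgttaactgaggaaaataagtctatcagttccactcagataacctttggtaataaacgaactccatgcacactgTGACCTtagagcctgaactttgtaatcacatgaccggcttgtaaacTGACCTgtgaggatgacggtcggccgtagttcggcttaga
Nr5a2, chr1:136960449-136960698, before the outermost start: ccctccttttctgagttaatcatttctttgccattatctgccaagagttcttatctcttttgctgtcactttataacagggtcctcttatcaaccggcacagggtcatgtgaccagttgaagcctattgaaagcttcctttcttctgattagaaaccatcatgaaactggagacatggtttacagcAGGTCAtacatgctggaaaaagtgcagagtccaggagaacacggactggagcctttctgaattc
Nr0b1, chrX:86191525-86191763, before the start: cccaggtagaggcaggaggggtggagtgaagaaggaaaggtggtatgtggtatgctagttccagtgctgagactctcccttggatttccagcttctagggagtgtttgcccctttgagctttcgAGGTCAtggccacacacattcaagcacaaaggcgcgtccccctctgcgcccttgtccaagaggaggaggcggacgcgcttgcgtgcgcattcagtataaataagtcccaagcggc
The first bases of the matches lay at -91 and -45 from the Nr6a1 start, at -64 from that of Nr5a2 and at -126 from that of Nr0b1. No member window held 2 half-sites (read as AGGTCA, with G also allowed as the first letter and T as the third) in direct repeat, on either strand, with 0, 1, 2 or 5 bases between them, patterns found in 0.213%, 0.222%, 0.268% and 0.0974% of all windows. The extended half-site TCAAGGTCA, which contains the AGGTCA letters, was in 0.423% of all windows and in no member window. These are matches of letters and not shown sites, and enhancers further away were not searched.

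Levels are CPM, the count scaled to a library of 1000000 counts after TMM normalisation, mean ± SD of 3 libraries. Library totals ran from 17116084 to 22775275 counts, with AGN D8.5 replicate 1 at 38120841, and the lowest count of a member in a library was 36, for Nr5a2 in AGN at D10. CD1530 D6.75 replicate 1 stood apart from its replicates, with a chi-square per gene of 20.6 to 21.9 against at most 4.87 in any other replicate pair. The D6.75 ligand differences of Nr2f2, Nr6a1, Nr5a2 and Nr0b1 are also given without it, as are the member counts of the CD1530 steps. Most other results at D6.75, among them those of the marker lists, are given with it only. In bulk RNA a lower level can mean fewer cells of a type or less RNA in each, which cannot be told apart here. The labelled identities were checked on marker genes fixed in a list. In PM the paraxial mesoderm genes Tbx6 and Msgn1 were at 9.56 ± 0.77 and 3.38 ± 0.61 CPM, and the pluripotency gene Pou5f1 was at 701.2 ± 8.2 CPM, so this marker of pluripotent cells was abundant there. At D10 CD1530 cells held the tendon regulator Scx at 857.6 ± 17.4 CPM and AGN cells at 1223 ± 28, and Acan, a cartilage proteoglycan, stood at 4.67 ± 0.67 and 215.1 ± 11.9 CPM.

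Each COUP-TF gene had its lowest group mean in PM and rose within 0.25 days, while Nr6a1, Nr5a2 and Nr0b1 ended below their PM level with either ligand. From PM to D6.25, Nr2f1 rose 10.4-fold in CD1530 and 8.89-fold in AGN, Nr2f2 5.91-fold and 5.52-fold, and Nr2f6 1.95-fold and 1.87-fold. Nr5a2 fell 2.33-fold in CD1530 and 2.12-fold in AGN over the same step. Nr6a1 and Nr0b1 fell in AGN, by 0.47 ± 0.06 and 0.54 ± 0.06 on the log2 scale (log2 fold change ± SE, edgeR's quasi-likelihood test, adjusted p 1.38e-09 and 1.15e-09). In CD1530 they differed from PM by -0.07 ± 0.06 and -0.01 ± 0.06 (edgeR adjusted p 0.261 and 0.949). These steps called 4 of the 6 members in CD1530, where 67.8% of all genes were called at an adjusted p under 0.05, and 6 in AGN, where 68.1% were called. Both steps use the same 3 PM libraries.

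**Figure D1:**
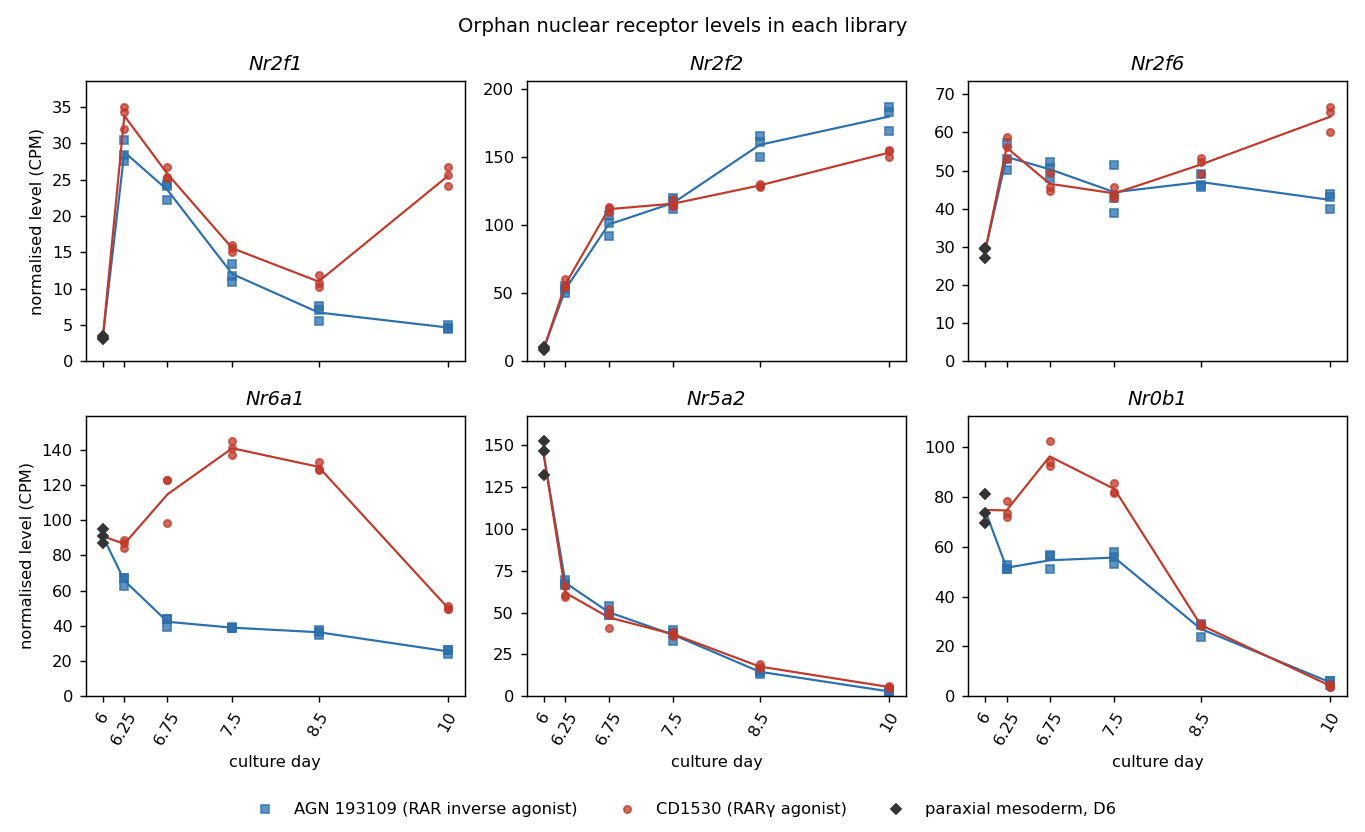
Level of each receptor in every library (y axis, CPM from 0) against the culture day (x axis) for CD1530, AGN and the PM libraries they share, with lines through the group means. Nr2f1 is farthest apart by ligand at D10, where CD1530 libraries lie between 24.2 and 26.8 CPM and AGN libraries between 4.40 and 4.94. Nr2f1 and Nr6a1 each have a higher mean in CD1530 at every time point after D6.

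Over the whole course from PM to D10, all 6 members were called in both conditions, against 83.2% of all genes in CD1530 and 82% in AGN, 3 higher and 3 lower in each. The COUP-TF genes were the 3 that rose and Nr6a1, Nr5a2 and Nr0b1 the 3 that fell. Per kb of exon, which allows levels of different genes to be set side by side, Nr0b1 led in PM at 41.4 ± 3.3 CPM per kb, followed by Nr5a2 at 24.4 ± 1.8, Nr2f6 at 9.63 ± 0.50, Nr6a1 at 8.40 ± 0.38, Nr2f2 at 1.11 ± 0.12 and Nr2f1 at 0.633 ± 0.042. At D10 in CD1530 the order was Nr2f6 (21.5 ± 1.2 CPM per kb), Nr2f2 (17.8 ± 0.3), Nr2f1 (5.01 ± 0.26), Nr6a1 (4.63 ± 0.09), Nr0b1 (2.29 ± 0.37) and Nr5a2 (0.923 ± 0.138). At D10 in AGN Nr2f2 came first at 20.9 ± 1.1 CPM per kb, ahead of Nr2f6 at 14.2 ± 0.7, Nr0b1 at 3.06 ± 0.52, Nr6a1 at 2.35 ± 0.10, Nr2f1 at 0.914 ± 0.053 and Nr5a2 at 0.475 ± 0.113. The place of Nr2f6 in these orders is uncertain for the reason given with that gene.

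The contrast of CD1530 with AGN at matched times asks which of these receptors follow the retinoid ligand. At D6.25, 2 of the 6 members were called, both higher in CD1530, against 1.92% of all genes. At D6.75 there were 3 of 6 against 18%, and at D7.5 also 3 of 6 against 26.9%, all higher in CD1530. At D8.5, 4 of 6 were called against 40%, of which 3 were higher and Nr2f2 was lower. By D10 all 6 were called against 46.6% of all genes, Nr2f1, Nr2f6, Nr6a1 and Nr5a2 higher and Nr2f2 and Nr0b1 lower in CD1530. The calls of Nr2f2 at D6.75, Nr5a2 at D8.5 and Nr0b1 at D10 were lost without certain single libraries, as given with those genes. The median log2 fold change of the 6 was 0.17 at D6.25 and 0.78 at D10, where the medians over all genes were 0.00 and -0.02.

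**Figure D2:**
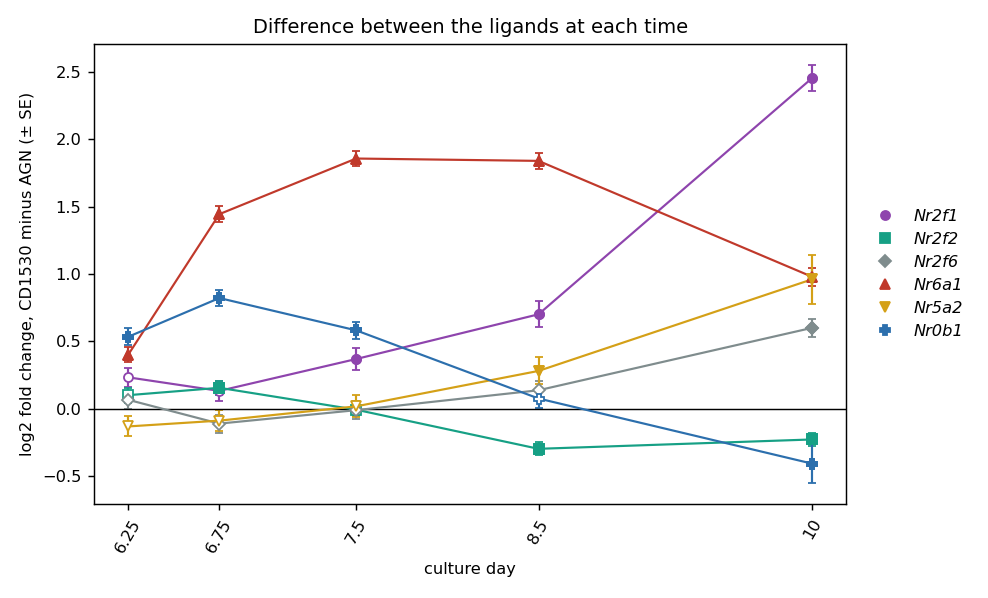
Log2 fold change of CD1530 over AGN (y axis, ± SE, edgeR fit) against the culture day (x axis) for the 6 receptors, with filled symbols where the adjusted p was under 0.05. Nr6a1 reaches 1.86 at D7.5 and is back to 0.98 at D10, whereas Nr2f1 stays at or under 0.70 until D8.5 and reaches 2.45 at D10.

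Whether the ligand difference changed over time was tested as an interaction. All 6 members were called in the test over the 5 time points, against 48.8% of all genes, with edgeR adjusted p-values from 3.39e-19 for Nr6a1 to 0.00012 for Nr5a2. All 6 were also called for the change of the difference from D6.25 to D10, against 33.3% of all genes. That change was 2.22 ± 0.12 for Nr2f1, 1.09 ± 0.20 for Nr5a2, 0.58 ± 0.09 for Nr6a1 and 0.53 ± 0.10 for Nr2f6 on the log2 scale. It was -0.33 ± 0.07 for Nr2f2 and -0.94 ± 0.16 for Nr0b1. Both interactions use the D6.25 and D10 libraries, so they are not separate evidence.

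Nr2f1, the COUP-TF of neural crest and forebrain, had a first peak at D6.25 in both conditions and a second rise with CD1530. The PM libraries were at 3.21, 3.45 and 3.02 CPM, the D6.25 libraries at 32.0, 35.0 and 34.3 in CD1530 and at 30.4, 28.3 and 27.6 in AGN. At D6.25 no CD1530 library overlapped an AGN library, but the difference of 0.23 ± 0.07 on the log2 scale had an edgeR adjusted p of 0.0738 and was not called. The likelihood ratio test and a fit of the compared groups only did call it (adjusted p 0.0277 and 0.00979). The ligand groups also did not overlap at D6.75 (0.13 ± 0.07, edgeR adjusted p 0.232, not called) or at D7.5 (0.37 ± 0.08, adjusted p 0.000733, called). Nr2f1 then fell at each step to D8.5 in both conditions, by 0.39 ± 0.07, 0.73 ± 0.08 and 0.50 ± 0.09 in CD1530 and by 0.29 ± 0.07, 0.97 ± 0.08 and 0.83 ± 0.09 in AGN on the log2 scale. By D8.5 the libraries were at 10.2, 11.9 and 10.8 CPM in CD1530 and 7.04, 5.55 and 7.57 in AGN, which is 0.70 ± 0.10 higher in CD1530 (edgeR adjusted p 1.05e-07). From D8.5 to D10 Nr2f1 rose 2.32-fold in CD1530, to 26.8, 24.2 and 25.6 CPM, and fell 1.45-fold in AGN, to 4.63, 4.94 and 4.40 CPM. The D10 groups lay far apart, with a 5.48-fold difference (log2 2.45 ± 0.10, edgeR adjusted p 1.04e-23). This divergence of the D8.5 to D10 step was tested after the values were seen and came to 1.75 ± 0.14 on the log2 scale (edgeR adjusted p 5.94e-13), in an interaction that called 5 of 6 members and 26.8% of all genes. In the order of the 11 group means, 3 of the 10 neighbouring pairs overlapped, among them CD1530 at D6.75 with CD1530 at D10.

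Neural markers differed between the ligands in the same direction as Nr2f1 at D8.5 and D10, but their summed level did not follow its course. In a fixed list of 8 neural genes, CD1530 was called above AGN for 6 at D10 and below for 1, with 4 higher and 1 lower at D8.5. Between ligands, 46.6% of all genes were called at D10 and 40% at D8.5. The neural progenitor gene Sox1 reached 16.03 ± 1.82 CPM at D10 with CD1530 and 0.367 ± 0.168 with AGN. Neurog2, a neuronal commitment gene, reached 2.64 ± 0.26 CPM with CD1530 and stood at 0 in all 3 AGN libraries, so it was at least 14.5-fold higher against a floor of 3 counts per library. Stmn2, a neuronal tubulin regulator, was lower in CD1530, at 11.5 ± 0.3 against 18.1 ± 0.9 CPM. Summed over the 8 genes, the CD1530 libraries were between 124.2 and 129.1 CPM at D8.5 and lower at D10, between 89.2 and 92.9 CPM, over the step in which Nr2f1 rose. Sox1 was also higher in CD1530 at D8.5, with 29.5 ± 1.6 CPM, than at D10. The AGN sum at D10 was 34.5 to 38.0 CPM, and in PM, where Nr2f1 was lowest, it was 130.2 to 139.4. Counted by gene, CD1530 at D10 was called above PM for 5 of the 8 and below for 2 (median log2 fold change 3.12). For AGN at D10 it was 3 above and 3 below (median -0.38). Of all genes, 83.2% and 82% were called in these comparisons. The part of neural cells in the Nr2f1 level was not tested. The antisense gene A830082K12Rik, which overlaps 123 bp or 2.42% of the Nr2f1 exons, also changed, from 0.773 ± 0.118 CPM in PM to 6.21 ± 0.42 in CD1530 at D6.25, and ended at 4.17 ± 0.31 with CD1530 and 0.948 ± 0.209 with AGN. As the strand setting of the counting is not stated, reads of the pair in the overlap cannot be told apart.

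Nr2f2, the COUP-TF of mesenchyme and veins, rose over the course in both conditions. Its PM libraries were at 8.57, 10.6 and 9.64 CPM and it rose 15.97-fold to D10 in CD1530 and 18.7-fold in AGN. The levels at D6.75 were 112.3, 109.5 and 113.6 CPM in CD1530 and 102.0, 92.2 and 107.4 in AGN. The groups did not overlap and differed by 0.15 ± 0.05 on the log2 scale (edgeR adjusted p 0.0275), and by 0.15 without CD1530 D6.75 replicate 1 (adjusted p 0.029). That call was lost without AGN D6.75 replicate 2 (log2 0.10, adjusted p 0.268), without CD1530 D6.75 replicate 3 (0.14, adjusted p 0.0644) and in a fit of the compared groups only (0.16, adjusted p 0.223). At D7.5 the difference was -0.01 ± 0.05. From D8.5 Nr2f2 was lower in CD1530, at 128.4, 130.4 and 128.9 CPM against 161.4, 150.2 and 165.5 in AGN, a difference of -0.30 ± 0.05 (edgeR adjusted p 3.6e-06). The D10 libraries were at 150.1, 155.1 and 154.8 CPM in CD1530 and 187.2, 183.4 and 168.9 in AGN, again without overlap, with a difference of -0.23 ± 0.05 (adjusted p 0.000154). Thus the sign at D8.5 and D10 was opposite to that at D6.75, and these later differences were 1.23-fold and 1.17-fold.

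Endothelial markers were mostly higher in CD1530 at D6.75, D7.5 and D8.5, while the Nr2f2 difference was 0.15, -0.01 and -0.30. Between ligands, 18% of all genes were called at D6.75, 26.9% at D7.5, 40% at D8.5 and 46.6% at D10. Of 8 endothelial genes, 7 were called higher in CD1530 at D6.75 and at D7.5, 6 were higher and 1 lower at D8.5, and 3 were higher and 2 lower at D10. Their summed level at D6.75 was 482.4 to 516.8 CPM with CD1530 and 304.6 to 324.5 with AGN. The sums were as far apart at D7.5, at 495.8 to 516.5 and 296.0 to 325.4 CPM, and at D8.5 they were 306.5 to 317.6 and 245.1 to 260.8 CPM. Emcn, a venous and capillary surface protein, stood at 8.06 ± 0.80 CPM at D10 with CD1530 and 3.39 ± 0.84 with AGN, and the VEGF receptor gene Kdr at 45.3 ± 1.8 and 21.2 ± 1.3. Cdh5 and Tek, a junction protein and an angiopoietin receptor, were lower in CD1530 at D10, by 0.24 ± 0.08 and 0.46 ± 0.14 on the log2 scale. By D10 the sums were close, 167.0 to 185.2 CPM with CD1530 and 156.3 to 167.3 with AGN, while Nr2f2 was lower with CD1530, and the part of endothelial cells in the Nr2f2 level was not tested. B130024G19Rik, on the strand opposite to Nr2f2, overlaps 643 bp or 7.46% of its exons and was at or under 50 counts in every library.

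Nr2f6, also called EAR2, varied least, with a span of 2.23-fold between its highest and lowest group means. After the rise to D6.25 it was at 38.8 to 58.8 CPM in every induced library up to D8.5, and 8 of the 10 neighbouring pairs in the order of group means overlapped. The ligands were not called different at D6.25, D6.75, D7.5 or D8.5, with differences between -0.11 ± 0.07 and 0.14 ± 0.07 on the log2 scale. At D10 the libraries were at 60.2, 65.4 and 66.8 CPM in CD1530 and 44.0, 43.0 and 40.0 in AGN. The groups were separate, 0.60 ± 0.07 on the log2 scale (edgeR adjusted p 1.25e-09), and the D8.5 to D10 step differed by 0.46 ± 0.10 (adjusted p 0.000268). Of the Nr2f6 exons, 1622 bp or 54.4% overlap Ocel1, a protein-coding gene on the opposite strand, so the Nr2f6 level and its order per kb are uncertain. Ocel1 was at 66 to 179 counts a library and at D10 had a mean of 4.99 ± 0.64 CPM with CD1530 and 4.62 ± 0.46 with AGN, a difference of 0.11 ± 0.15 (adjusted p 0.57).

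The make-up of the COUP-TF family shifted with time and ligand. The summed level of the 3 genes was 11.4 ± 0.4 CPM per kb in PM, and by D10 it was 44.3 ± 1.3 with CD1530 and 35.95 ± 1.85 with AGN. Nr2f6 made up 84.6% ± 1.8 of it in PM (SD, n = 3), with Nr2f2 at 9.81% ± 1.31 and Nr2f1 at 5.58% ± 0.55. At D10 Nr2f2 made up 58.0% ± 0.1 in AGN and 40.2% ± 0.5 in CD1530, and Nr2f1 2.54% ± 0.11 in AGN and 11.3% ± 0.9 in CD1530. These shares are a description, carry the Ocel1 overlap in the Nr2f6 term, and were not tested.

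**Figure D3:**
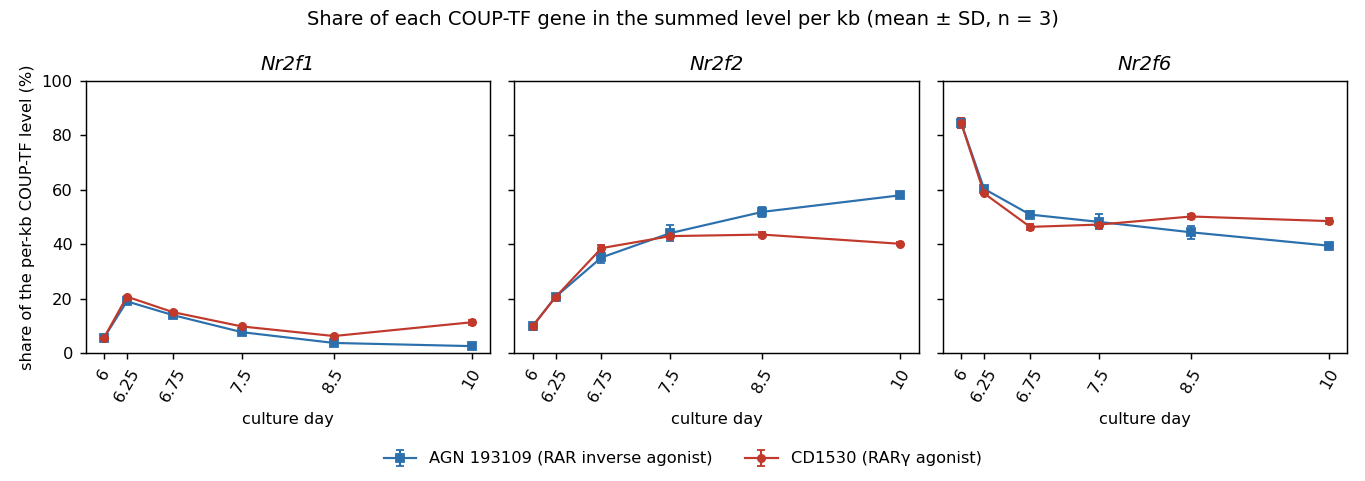
Share of Nr2f1, Nr2f2 and Nr2f6 in their summed level per kb of exon (y axis, percent, mean ± SD of 3 libraries) against the culture day (x axis) in both conditions, starting from the PM libraries they share. The Nr2f2 share climbs from 9.81% to 58.0% in AGN. In CD1530 it is highest at D8.5, at 43.55%, and is 40.2% at D10, where the Nr2f1 share is 11.3%.

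Nr6a1, the trunk and germ cell receptor that represses Pou5f1, was the only member called between the ligands at all 5 time points. PM libraries were at 90.8, 86.9 and 95.0 CPM. At D6.25 CD1530 was at 87.1, 84.1 and 88.6 CPM and AGN at 62.9, 67.1 and 67.1, a difference of 0.40 ± 0.06 on the log2 scale (edgeR adjusted p 7.84e-06). Here the AGN libraries had left the PM range and the CD1530 libraries overlapped it. At D6.75 CD1530 rose to 98.4, 122.7 and 123.1 CPM and AGN fell to 39.3, 43.7 and 43.9, so that the difference was 1.44 ± 0.06 (adjusted p 1.31e-22). The low value is that of the library that stood apart, and without it the difference was 1.54 (adjusted p 1.76e-39). The widening from D6.25 to D6.75, tested after the values were seen, was 1.04 ± 0.08 (adjusted p 9.34e-13), or 1.14 without that library, and Nr6a1 was the 1 member called in this interaction, against 4.82% of all genes. Nr0b1 was just over the threshold in it (0.29 ± 0.09, edgeR adjusted p 0.0516).

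Nr6a1 had its highest mean in CD1530 at D7.5, at 137.1, 140.8 and 144.9 CPM, when AGN was at 39.1, 38.8 and 38.9, a 3.62-fold difference (log2 1.86 ± 0.06, edgeR adjusted p 1.08e-26). It was nearly as far apart at D8.5, at 128.4, 129.4 and 133.3 CPM in CD1530 and 37.8, 34.9 and 36.3 in AGN (log2 1.84 ± 0.06). From D8.5 to D10 it fell 2.60-fold in CD1530, to 51.2, 49.6 and 49.5 CPM, and 1.43-fold in AGN, to 26.0, 24.2 and 26.1 CPM, leaving a difference of 0.98 ± 0.07 (adjusted p 4.39e-16). The difference narrowed over this step by 0.86 ± 0.09 (adjusted p 4.32e-10). The group means ran from 25.4 to 140.9 CPM, and 1 of the 10 neighbouring pairs overlapped, PM with CD1530 at D6.25. No exon of another annotated gene overlapped those of Nr6a1.

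Pou5f1, the known target of Nr6a1, was not called different between ligands at D6.75 (0.09 on the log2 scale, edgeR adjusted p 0.19), when Nr6a1 was already 2.72-fold higher in CD1530. It was 0.24 lower in CD1530 at D7.5, 0.93 lower at D8.5 and 2.49 lower at D10, where its mean was 26.6 ± 1.6 CPM with CD1530 and 149.3 ± 3.2 with AGN. Nr6a1 was 3.62-fold higher in CD1530 at D7.5 and 3.58-fold at D8.5. Over that step Pou5f1 went from 321.4 ± 3.3 to 150.6 ± 4.5 CPM in CD1530 and from 380.8 ± 14.6 to 286.4 ± 26.3 in AGN. At D10 the Pou5f1 difference was at its widest, while the Nr6a1 difference had narrowed. No link between the genes was tested, at the same time or with a delay. In a list of 8 genes that act with Lin28 and Gdf11 in trunk length and developmental timing, 3 passed the test as higher and 3 as lower with CD1530 at D10. At that time 46.6% of all genes were called. Lin28b and Gdf11 were higher, with log2 fold changes of 0.44 ± 0.09 and 0.37 ± 0.07, and Lin28a and Hmga1 were lower, at -0.71 ± 0.04 and -0.46 ± 0.04.

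Nr5a2, which sustains Pou5f1, fell at every step in both conditions. PM libraries were at 146.9, 132.4 and 152.5 CPM, and the D10 libraries at 5.35, 4.68 and 6.30 in CD1530 and 3.50, 2.17 and 2.73 in AGN, a fall of 26.4-fold and 51.4-fold. The ligands were not called different up to D7.5. At D6.75 the difference was -0.09 ± 0.08 on the log2 scale, with CD1530 at 40.7, 48.6 and 52.1 CPM and AGN at 48.6, 48.3 and 53.9, and it was 0.01 without CD1530 D6.75 replicate 1. At D8.5 CD1530 was higher at 17.2, 16.9 and 19.0 CPM against 14.5, 13.5 and 15.8, by 0.28 ± 0.10 (edgeR adjusted p 0.025), a call lost without AGN D8.5 replicate 1, AGN D8.5 replicate 2 or CD1530 D8.5 replicate 3, with differences of 0.27, 0.23 and 0.23. The D10 groups did not overlap and differed by 0.96 ± 0.18 (adjusted p 4.31e-05), at 36 to 112 counts a library. The D8.5 to D10 step differed by 0.68 ± 0.21 (adjusted p 0.0143), a call lost without AGN D10 replicate 2 (0.53, adjusted p 0.0835) or CD1530 D10 replicate 3 (0.57, adjusted p 0.0583).

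Nr0b1, the stem cell corepressor on the X chromosome, kept its PM level longer in CD1530. At D6.25 the libraries were at 78.6, 71.8 and 73.5 CPM in CD1530 and 51.0, 51.1 and 52.5 in AGN, against 69.6, 81.3 and 73.5 in PM. The AGN libraries lay below all others, with a difference of 0.53 ± 0.06 on the log2 scale (edgeR adjusted p 2.49e-07). At D6.75 CD1530 rose to 102.4, 94.0 and 92.6 CPM with AGN at 50.9, 56.3 and 56.5, a difference of 0.82 ± 0.06 (adjusted p 1.24e-13) or 0.78 without CD1530 D6.75 replicate 1. The groups were still separate at D7.5, at 81.7, 85.8 and 82.1 CPM against 56.0, 53.0 and 58.0 (0.58 ± 0.06, adjusted p 8.93e-10). By D8.5 they overlapped, at 28.8, 28.8 and 28.1 CPM in CD1530 and 28.6, 28.8 and 23.6 in AGN (0.07 ± 0.07, adjusted p 0.458). At D10, with 67 to 100 counts a library, CD1530 was at 4.90, 3.69 and 3.82 CPM and AGN at 6.19, 4.46 and 5.94. The groups overlapped, and the difference of -0.41 ± 0.14 (adjusted p 0.0166) was lost without AGN D10 replicate 1, AGN D10 replicate 3, CD1530 D10 replicate 2 or CD1530 D10 replicate 3, with differences between -0.36 and -0.32 and adjusted p-values between 0.0673 and 0.104. Its D8.5 to D10 step differed by -0.48 ± 0.16 (adjusted p 0.0215), also lost without any 1 of these 4 libraries, with adjusted p-values between 0.0693 and 0.0995.

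Nr5a2 and Nr0b1 belong to the pluripotency network. All 14 listed genes were called lower than in PM at D6.25 and at D10, with either ligand. Between ligands at D10, 6 were called higher and 6 lower in CD1530. Tbx3 and Prdm14 were higher, by 1.65 ± 0.08 and 1.33 ± 0.22 on the log2 scale, and Fgf4 and Pou5f1 were lower, at -2.58 ± 0.08 and -2.49 ± 0.06. The summed level of the list was 3735 to 3783 CPM in PM, and by D10 it was 407.7 to 422.5 with CD1530 and 629.3 to 654.3 with AGN. Abundant genes weigh most in this sum, and Pou5f1 alone was at 26.6 ± 1.6 CPM with CD1530 and 149.3 ± 3.2 with AGN at D10. The median log2 fold change of the list between ligands at D10 was 0.09. Nr5a2 was higher in CD1530 at D10, as was Sox2 (0.66 ± 0.05), a gene of this list. What remaining stem cells contribute to the D10 levels of Nr5a2 and Nr0b1 was not tested.

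The changes between neighbouring times were tested in each condition. In CD1530, 6 of 6 were called from D6.25 to D6.75 (45.9% of all genes), 4 from D6.75 to D7.5 (34.2%), 5 from D7.5 to D8.5 (36.5%) and 6 from D8.5 to D10 (57.3%). In AGN the numbers were 4 (43.7%), 4 (30.3%), 4 (42.1%) and 5 (59.4%). The Nr2f6 call among the 4 from D6.75 to D7.5 in AGN (-0.18 ± 0.07 on the log2 scale, edgeR adjusted p 0.0402) was lost without AGN D6.75 replicate 2 or 3 or AGN D7.5 replicate 1 or 2, with differences between -0.17 and -0.10 and adjusted p-values between 0.0992 and 0.345, and in other fits. Leaving out CD1530 D6.75 replicate 1 left 6 and 4 members called in the 2 CD1530 steps that use it. From D8.5 to D10 Nr0b1 fell 6.87-fold in CD1530 and 4.91-fold in AGN and Nr5a2 fell 3.25-fold and 5.21-fold.

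Other nuclear receptors give the setting. Between ligands, 46.6% of all genes were called at D10 and 1.92% at D6.25. Of 18 further orphan receptors listed, 12 were in the table, and at D10 4 were called higher and 2 lower in CD1530, with none called at D6.25. Esrrg, an oestrogen-related receptor, had a mean of 1.41 ± 0.30 CPM with CD1530 and 0.080 ± 0.092 with AGN, at least 7.74-fold higher against the floor of 3 counts per library. Nr4a3, an immediate early receptor, was at 1.21 ± 0.32 and 0.305 ± 0.110 CPM. The clock repressor gene Nr1d1 and Rora, a receptor gene that acts against it in the clock, were lower in CD1530, at -0.90 ± 0.11 and -0.39 ± 0.09 on the log2 scale. Of 18 receptors with known hormone or lipid ligands, 10 were in the table, and at D10 1 was higher, the glucocorticoid receptor gene Nr3c1 (0.42 ± 0.08), and 2 were lower, the thyroid hormone receptor gene Thra (-1.01 ± 0.05) and the oxysterol receptor gene Nr1h2 (-0.15 ± 0.05).

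**Figure D4:**
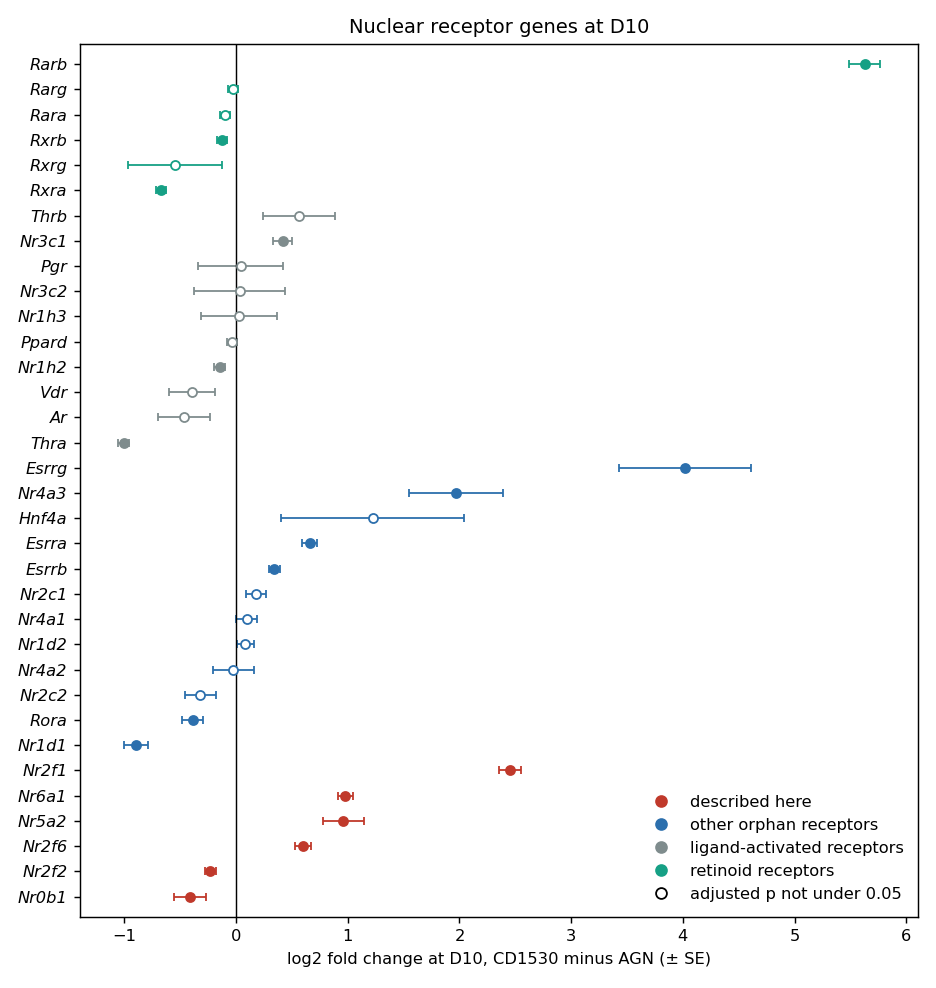
Log2 fold change of CD1530 over AGN at D10 (x axis, ± SE, edgeR fit) for the 6 receptors described and for 28 other nuclear receptor genes of the table, by class, with open symbols where the adjusted p was not under 0.05. Rarb is the farthest right at 5.63, Nr2f1 is the highest of the 6 at 2.45, and Nr0b1 and Nr2f2 lie left of 0.

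Retinoid response genes were read as a check of the ligands. Of 8 retinoic acid response genes, 6 were higher in CD1530 at D6.25 and all 8 at each later time, against 1.92% of all genes called at D6.25 and 18% to 46.6% later. In AGN at D6.25, 5 of the 8 were also called above PM and 1 below, where 68.1% of all genes were called. Among them Cyp26a1 went from 0.40 ± 0.18 CPM in PM to 41.0 ± 1.6 in AGN and 74.1 ± 0.8 in CD1530 at D6.25. Stra8, a meiotic entry gene, stood at 200.7 ± 1.1 CPM at D10 with CD1530 and 0.162 ± 0.036 with AGN, at least 1100-fold higher against the floor, and Hoxb1 was at least 135-fold higher. Their median log2 fold change was 0.76 at D6.25 and 5.02 at D10, against 0.17 and 0.78 for the 6 orphan receptors. Among the 6 retinoid receptor genes, Rarb was higher in CD1530 by 5.63 ± 0.14 at D10, and the COUP-TF partner genes Rxra and Rxrb were lower, at -0.68 ± 0.04 and -0.12 ± 0.05. Of 9 cofactors of COUP-TFs, 3 were higher and 2 lower in CD1530 at D10, against 46.6% of all genes called. The coactivator gene Ncoa3 and Zfpm1, a FOG protein, were higher, by 0.73 ± 0.09 and 0.38 ± 0.07, and the COUP-TF interacting genes Bcl11b and Bcl11a were lower, at -0.80 ± 0.09 and -0.56 ± 0.07.

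Further lists were read beside the members at D10, where 46.6% of all genes were called between ligands. Among 8 paraxial mesoderm genes, CD1530 was called above AGN for 4 and below for 1 at D10, with Pax3 (1.57 ± 0.36) and Dll1 (1.04 ± 0.14) higher and Rspo3 (-0.43 ± 0.08) lower. Of 8 tendon genes, 1 was higher (Tnc, 0.49 ± 0.11) and 5 lower, among them Postn (-1.81 ± 0.09) and Bgn (-1.06 ± 0.05). All 6 cartilage genes were lower, Acan at -5.53 ± 0.09 and Matn4 at -4.26 ± 0.10. Of 8 endoderm genes, 3 were higher and 3 lower, and Foxa2 and Epcam were lower, at -1.72 ± 0.12 and -1.11 ± 0.04. Sox17, a definitive endoderm regulator named after its values were seen, was higher in CD1530 (0.75 ± 0.18). Apob and Afp, liver secretory genes, were at least 3.55-fold and at least 1.87-fold higher in CD1530 against the floor, both under 1 CPM.

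The genes whose 11 group means followed each member most closely were named by Pearson correlation of log2(CPM + 0.5) over the 11 groups, among 12267 genes, as a description with no p, since the groups share a time course. For Nr2f1 they were Lpar6 (r = 0.96), Krt7 (0.95), Kcns3 (0.95), Acsbg1 (0.94) and Fbxw11 (0.94), and for Nr2f2 St8sia1, Mdfi, Elk3, Pcdhgb7 and Tppp3 (0.99 to 1.00). Nr2f6 went with Septin9, Zeb2, Nckap5l, Snx24 and Tnfrsf12a (0.95 to 0.97), and Nr6a1 with Aurkc, Spred2, Gca, Tle6 and Shisa8 (0.95 to 0.98). Nr5a2 went with Cecr2, Esrrb, Sox2 and Ptpn6 (0.99), and Nr0b1 with Ttpa, Pced1b, Hic2, Ptpn3 and Tex21 (0.97 to 0.99). With a pseudocount of 5 in place of 0.5, 2 of the 5 stayed for Nr2f1, 4 for Nr2f2, Nr2f6 and Nr0b1, 5 for Nr6a1 and 0 for Nr5a2. Among the members, Nr5a2 and Nr0b1 were the most alike (r = 0.91), then Nr2f1 and Nr2f6 (0.79), and Nr2f2 and Nr5a2 the least (-0.76). The nearest gene to Nr2f2, St8sia1, was at 1.49 ± 0.46 CPM in PM, and at D10 152.1 ± 6.1 with CD1530 and 172.9 ± 1.8 with AGN. The receptor Esrrb, named beside Nr5a2, was at 542.4 ± 10.2, 37.9 ± 0.9 and 29.9 ± 0.5 CPM in the same groups.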

How the data were processed

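Bulk RNA-seq counts per gene were deposited for 33 libraries, 3 in each of 11 groups. The authors had aligned the reads with STAR to GRCm38 and made the counts with featureCounts, and the deposited count table holds raw counts already filtered on low values. The strand setting, the annotation release and the handling of reads that map to several genes are not given in the sources used here. Of the 17120 gene identifiers, 17117 matched GENCODE M21, from which positions, exon lengths and overlaps were taken. Samples were grouped by their labels.

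Differential expression was tested with edgeR 4.0.16 (R 4.3.3) by a robust quasi-likelihood F test on the 11 group means over all 17120 genes, with TMM normalisation and Benjamini-Hochberg adjustment within each of 21 comparisons, with 0.05 as the threshold on adjusted p. Comparisons were CD1530 minus AGN at each time, each step within a condition, each ligand at D10 against PM, and interactions of condition and time. The common biological coefficient of variation was 4.68%. The median library total was 19899242 counts, and a floor of 3 counts a library was used for ratios to a group at or under it, which covers counting error alone. The same code, tested on simulated data for CD1530 minus AGN at D10 over 17120 genes, called 182 of 200 changed genes and 10 unchanged ones. No replicate pair matched closely enough to be 1 library deposited again (lowest chi-square per gene 1.59).

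Replicate numbers were not taken to pair samples: the deviations of same-numbered samples correlated between -0.065 and 0.106, and 0 of 17 comparisons had every pair over 0.1. DESeq2 1.42.0, other scalings, a filter at 1 CPM in 3 libraries and each library left out in turn were alternatives. All 6 members are named. Of each fixed list the called genes with the highest absolute change at D10 are named, at most 2 higher and 2 lower, together with genes a result turns on, and for each member the 5 genes most alike in group means, among genes with a group mean of at least 5 CPM. Members and lists were chosen with earlier results of these data known, so no value is adjusted over a list alone. A gene of the orphan receptor list and 1 of the genes most like Nr5a2 are not reported here, and the list counts leave the former out.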

Additional observations from a re-analysis of the deposited data

Results flagged for a closer look

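The effect of the ligand differed between time points for all 6 receptors by a test of the difference itself (interaction terms of the edgeR fit, 3 libraries a group, values as differences of log2 fold changes of CD1530 over AGN). Of all genes, 33.3% were called from D6.25 to D10, 4.82% from D6.25 to D6.75 and 26.8% from D8.5 to D10. From D6.25 to D10 the effect changed by 2.22 for Nr2f1 (adjusted p 1.65e-18), 1.09 for Nr5a2 (3.53e-05), 0.58 for Nr6a1 (8.64e-07) and 0.53 for Nr2f6 (1.81e-05), and by -0.33 for Nr2f2 (0.000448) and -0.94 for Nr0b1 (5.24e-06). From D6.25 to D6.75 it changed by 1.04 for Nr6a1 (9.34e-13), and no other member was called. Nr0b1 was just over the threshold (0.29, adjusted p 0.0516). It was called by the likelihood ratio test (0.0311), with a replicate block (0.0461) and in some fits that left out 1 library (0.0328 to 0.0459). From D8.5 to D10 the effect changed by 1.75 for Nr2f1 (5.94e-13), 0.68 for Nr5a2 (0.0143) and 0.46 for Nr2f6 (0.000268), and by -0.86 for Nr6a1 (4.32e-10) and -0.48 for Nr0b1 (0.0215). The last 2 sets of tests were added after the values were seen. The direction was the same for Nr2f1 in every fit that left out 1 library, whereas the Nr5a2 and Nr0b1 calls from D8.5 to D10 rested on single libraries, as given with those genes.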

How the results depend on the processing

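Over 2662 recomputed values, 2582 kept their direction and their side of the threshold or their size, 25 lost a call, 15 gained one, 20 moved and 20 changed sign. Every value that changed sign belongs to a difference that was not called in the fit as reported, and the causes were not tested. With only the compared groups in the fit, which have fewer libraries for the spread, the genes called went from 7853 to 5214 for CD1530 D6.75 minus D6.25, from 5854 to 2826 for CD1530 D7.5 minus D6.75, from 3076 to 1236 between ligands at D6.75, and from 329 to 821 at D6.25. With 1 library left out, the D6.25 count was 196 to 276. For the interaction from D6.25 to D6.75, 826 genes were called, or 662 to 1301 with 1 library left out (1301 without CD1530 D6.75 replicate 1), and 1 member, or 1 to 2, with 2 by the likelihood ratio test. For that from D8.5 to D10, 5 members were called, or 3 to 5 with 1 library left out (3 without CD1530 D10 replicate 3). In fits with 1 library left out, log2 differences that crossed 0 ran from -0.0199 to 0.0649 (Nr0b1, AGN D6.75 to D7.5), -0.0551 to 0.0401 (Nr0b1, PM to CD1530 D6.25), -0.0001 to 0.1248 (Nr0b1, ligands at D8.5), -0.0378 to 0.0121 (Nr2f2, ligands at D7.5), -0.0037 to 0.1034 (Nr2f2, interaction D6.25 to D6.75), -0.0028 to 0.2014 (Nr2f6, AGN D7.5 to D8.5), -0.096 to 0.1082 (Nr2f6, ligands at D7.5), -0.17 to 0.0064 and -0.0586 to 0.0677 (Nr5a2, ligands at D6.75 and D7.5), and -0.0367 to 0.1402 (Nr5a2, interaction D6.25 to D6.75). With library size alone as the scaling, Nr0b1 from PM to CD1530 D6.25 was 0.0518 and Nr2f6 from AGN D7.5 to D8.5 was -0.0068. The Nr2f2 rises from AGN D8.5 to D10 (0.08, adjusted p 0.162) and from CD1530 D7.5 to D8.5 (0.11, 0.0616) were not called under that scaling. The Nr2f6 fall from AGN D6.75 to D7.5 (-0.18) was lost by the DESeq2 test (adjusted p 0.0504), with library size alone (0.0516), with only the compared groups (0.133) and in 4 fits without 1 library (0.0992 to 0.345). The Nr2f1 difference at D6.25 was gained by the likelihood ratio test (adjusted p 0.0277) and with only the compared groups (0.00979). A replicate block moved the genes called at D10 to 7914 and left 329 at D6.25, and it changed 1 member call, that of Nr0b1 in the interaction from D6.25 to D6.75 (0.29, adjusted p 0.0461), where 2 members were then called.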
